A study of Drosophila melanogaster with 12 samples.

Results

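The effect of the *nub1* mutation on transcript levels was compared between gut and carcass of adult *Drosophila melanogaster*. For each transcript, the change from wt to *nub1* in carcass was subtracted from the change from wt to *nub1* in gut. A positive difference thus means that *nub1* guts were higher, relative to wt guts, than *nub1* carcasses were relative to wt carcasses, and a negative difference the reverse. Transcripts were included when they could be measured in both tissues, that is, when the signal reached 10 on every array of both wt groups or on every array of both *nub1* groups. Of 18769 probe sets, 8395 met this rule, and all 12 arrays of the series were used. Of the 8395, 7682 met it in both genotypes, 407 through wt alone and 306 through *nub1* alone. The lowest signal behind the choice was 10.002 for *Mical*, just inside the limit, and 9.995 for *Ace*, just outside it.

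RNA of whole guts and of carcasses, meaning the fly without head and gut, was hybridized to Affymetrix Drosophila Genome 2.0 arrays, which hold short probes in sets for single transcripts. The 4 groups were wt gut, wt carcass, *nub1* gut and *nub1* carcass, each with 3 separately numbered biological replicates from pools of 20 females aged 7 to 12 days and kept at 25 °C together with males. The mutants were of the *nub1* *b1* *pr1* strain and thus carried alleles of *black* and *purple* beside *nub1*, an insertion of a 412 retrotransposon that leaves the longer protein Nub-PB and removes the shorter Nub-PD. The wt flies were OregonR by the design text, while the sample labels name OregonR together with w1118, so the strains differed in background as well as in *nub*. Values are MAS5 signals, scaled on each array to a mean of 100 after trimming 2% of probe sets from either end.

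Nub, also known as Pdm1, is a POU domain transcription factor, related to mammalian Oct1, that is made in the absorptive enterocytes of the fly gut. The gut epithelium secretes digestive proteases and glycosidases, detoxifies compounds from food with cytochromes P450 and glutathione S-transferases, and makes antimicrobial peptides through the IMD pathway and its factor Relish. The carcass holds the fat body, which stores lipid and releases antimicrobial peptides into the blood, along with muscle, ovaries, epidermis and blood cells.

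The genotype and the tissues were checked first. The *nub* probe set was not among the 8395, since its signal was under 10 on all 6 carcass arrays. In gut it was 282, 203 and 317 in wt and 420.3, 385 and 566 in *nub1*, and the probe set is not assigned to one of the *nub* transcripts. Transcript of *pr*, which encodes an enzyme of pterin synthesis, was 324, 345 and 335 in wt carcasses and 139, 127 and 134 in *nub1* carcasses, and 266, 235 and 246 in wt guts against 124, 134 and 135 in *nub1* guts. Its genotypes did not overlap in either tissue, and its difference between the tissues (0.39, SE 0.12, adjusted p = 0.0444 from limma) was under the 2-fold minimum. No probe set was named for *black* alone.

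Organ markers separated the tissues, but some gut arrays carried transcripts of other organs. The mean log2(signal + 10) of 8 enterocyte genes was 11.35 to 12.26 in gut and 7.20 to 8.21 in carcass. That of 18 ovary and eggshell genes was 10.47 to 10.79 on the carcass arrays, where ovaries belong, but 4.75, 7.56 and 8.90 on wt gut replicates 1 to 3 and 4.73, 8.67 and 5.95 on *nub1* gut replicates 1 to 3. For 17 male genes, made in the ejaculatory duct and accessory gland, it was 5.43 and 5.87 on *nub1* gut replicates 1 and 3, against 4.12 to 4.71 on the other 10 arrays, although the flies were labelled female. The mean of 11 fat body genes lay at 9.27 to 9.57 in carcass, 8.90 to 9.01 in wt gut and 8.16 to 8.64 in *nub1* gut. Of 5 spermatheca genes, 4 reached 10 on every gut array, and the mean of the list was 6.89, 6.92 and 7.49 in wt guts and 8.08, 8.13 and 8.39 in *nub1* guts, against 4.80 to 5.37 in carcass. It thus differed with genotype on all gut arrays, and its part in the gut effects was not tested. In such pools, fewer cells of a type and less RNA per cell cannot be told apart.

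**Figure D1:**
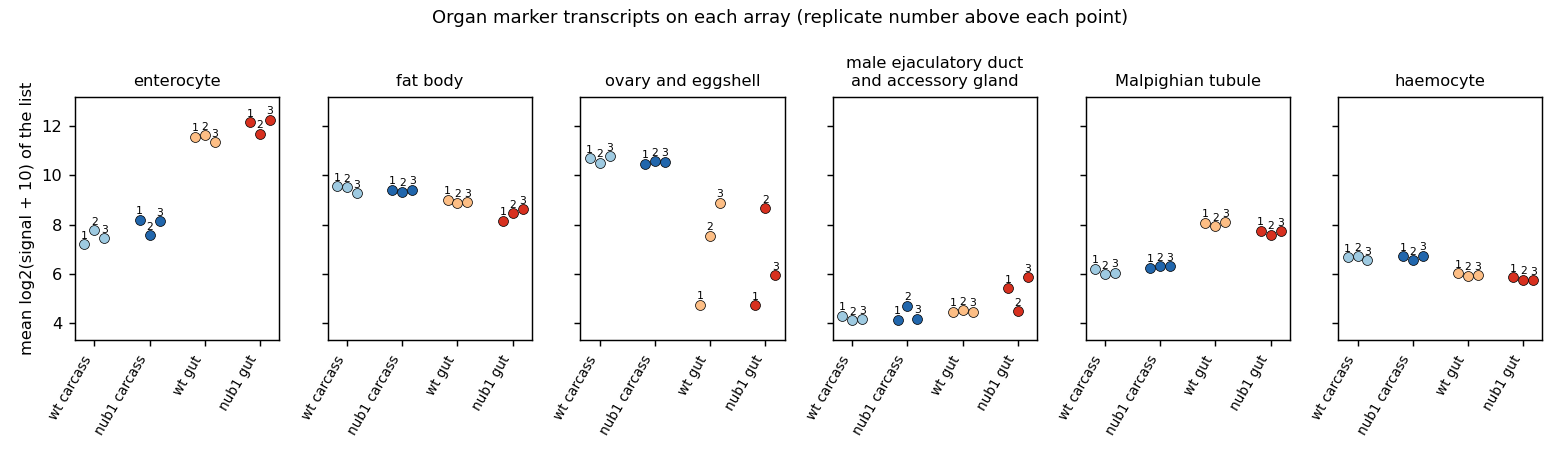
Mean log2(signal + 10) of 6 organ marker lists on each of the 12 arrays, with 1 point per array and the replicate number above it. The eggshell transcripts differ widely among the 6 gut arrays, from 4.73 to 8.90, and the ejaculatory duct list is highest on *nub1* gut replicates 1 and 3.

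The effect of *nub1* depended on tissue for 354 of the 8395 probe sets, which is 4.22%, taking as called an adjusted p (Benjamini-Hochberg) under 0.05 together with a difference of 1 or more on the log2 scale. The difference was negative for 227 (2.70%) and positive for 127 (1.51%). In terms of single genes, each represented by its brightest probe set, 295 of 7026 were called (4.20%), with 187 negative (2.66%) and 108 positive (1.54%). Within the tissues, 386 of the 8395 probe sets changed in *nub1* carcass (4.60%), of which 223 were higher (2.66%) and 163 lower (1.94%), and 551 in *nub1* gut (6.56%), of which 232 were higher (2.76%) and 319 lower (3.80%). Among the members measured in both genotypes, 262 of 7682 were called for the difference (3.41%), and the 407 and 306 that met the rule through wt alone or *nub1* alone held 50 and 42 called. The latter share (12.3% and 13.7%) is set in part by the rule, since a probe set that fell below the limit in 1 genotype had to differ. Genes named below that met the rule through *nub1* alone include *CG18628*, *CG4210*, *CG34227*, *CG2961*, *AttD*, *GstD8*, *Mal-A7* and *pirk*. Those that met it through wt alone include *Jon65Aii*, *Cht9*, *CG11893*, *CG4998*, *CG17681* and *Mal-B1*.

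Most probe sets with a called difference were called in 1 tissue alone, and a called fall in gut was the most frequent kind. Not called does not mean unchanged. *Acox57D-d*, called in gut alone, had a carcass effect of −0.54 (adjusted p = 0.0142 from limma). Of the 354, 171 were called in gut alone (112 lower and 59 higher in *nub1*), and 70 in carcass alone (50 higher and 20 lower). A further 28 were called in both tissues in the same direction but by unequal amounts, 2 in opposite directions, and 83 in neither tissue. For those 83 the fitted effects had opposite signs in gut and carcass, which the rule largely sets. Effects under 1 in size in both tissues can differ by 1 or more only when their signs are opposite. A call in 1 tissue alone was often not a call for the difference: of 361 members called in gut alone, 171 (47.4%) had a called difference, and of 196 called in carcass alone, 70 (35.7%) did. In total 97 members were higher and 91 lower in *nub1* in both tissues. Over the 8395 members, the 2 effects had a Pearson correlation of 0.55 and a Spearman correlation of 0.38, given as a description across genes, which are not independent replicates and come from the same pools of flies. The SD of the effect over members was 0.58 in gut and 0.48 in carcass.

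**Figure D2:**
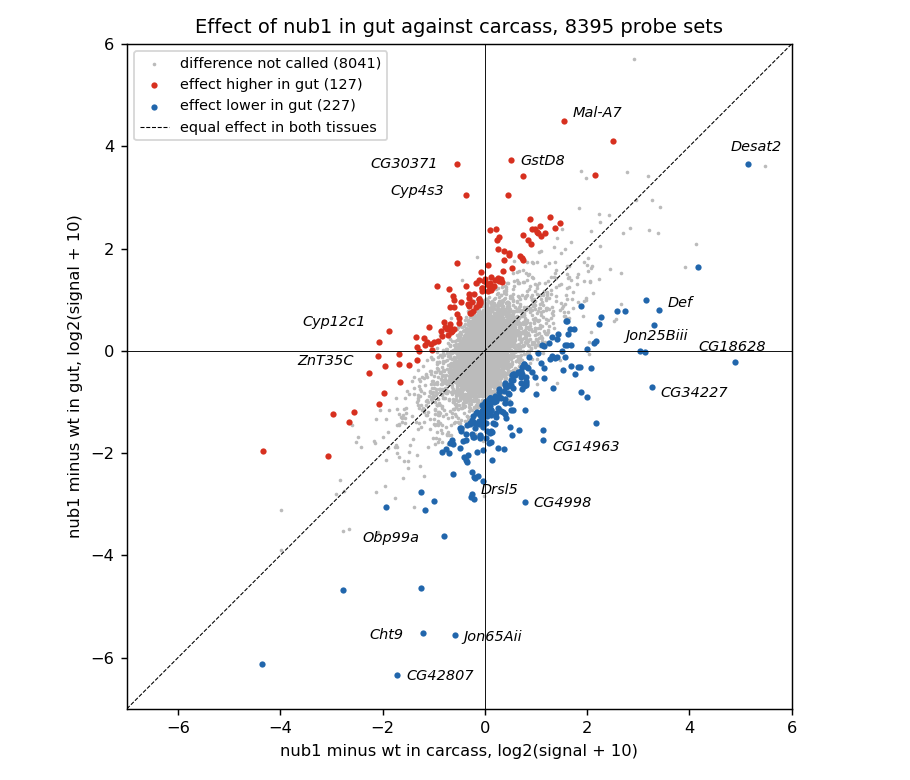
Change from wt to *nub1* in gut (vertical axis) against that in carcass (horizontal axis), both on the log2(signal + 10) scale, for 8395 probe sets. Red points are the 127 with a called difference higher in gut and blue points the 227 lower in gut. Equal effects would lie on the dashed diagonal, and the called points form a band on each side of it, from steep gut falls such as *CG42807* (−6.33) to the carcass rise of *CG18628* (4.89).

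The transcripts with the largest positive differences were mostly risen in *nub1* gut with little change in carcass, and several belong to detoxification and sugar digestion. *CG30371* had the largest difference. Its signal was 15.9, 26.3 and 103 in wt guts and 566, 513 and 692 in *nub1* guts, and 67.7, 63.1 and 57.2 in wt carcasses against 41.9, 36.8 and 40.6 in *nub1* carcasses. In gut *nub1* lay above wt on every array and in carcass below it, and the carcass change did not pass the test (gut 3.65, carcass −0.54, adjusted p in carcass = 0.479, difference 4.20, SE 0.56, adjusted p = 6.41e-04). The carcass test uses a variance shared with gut. The SD of the signal was 47.7 in wt gut, but 5.26 in wt and 2.63 in *nub1* carcass. The carcass p-value is therefore no evidence that carcass was unchanged.

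*Cyp4s3*, a cytochrome P450 gene, had signals of 13.7, 17.5 and 22.8 in wt guts and 249, 176 and 237 in *nub1* guts. In carcass they were 40.8, 34.2 and 34.6 in wt and 24.8, 31.3 and 22.7 in *nub1*. Carcass was thus the brighter tissue in wt flies and gut the brighter one in *nub1* flies (difference 3.41, SE 0.23, adjusted p = 4.73e-06). *GstD8*, a glutathione S-transferase gene, was at 20.1, 25.5 and 25.0 in wt guts and 553, 315 and 467 in *nub1* guts, while the 6 carcass arrays lay between 5.25 and 19.0 (difference 3.21, SE 0.27, adjusted p = 2.71e-05). All 3 *nub1* gut arrays of *GstD8* were over the highest of the other 9 arrays.

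The maltase gene *Mal-A7* rose in both tissues, but far more in gut. Its signal was 65.0, 83.9 and 63.2 in wt guts and 1875, 1794 and 1730 in *nub1* guts. In carcass it was under 10 on all 3 wt arrays and 64.3, 16.0 and 35.6 in *nub1*, which is at least 3.32-fold higher. The difference was 2.94 (SE 0.41, adjusted p = 8.28e-04), and a wt carcass group near the detection limit makes this value depend on the pseudocount. *tobi*, an alpha-glucosidase gene known as a target of insulin-like signals from the brain, was 316, 351 and 241 in wt guts and 3030, 3227 and 3586 in *nub1* guts, with overlapping carcass groups of 38.1 to 128 and 54.0 to 205 (difference 2.66, SE 0.61, adjusted p = 0.0150). *CG7381*, *Acox57D-d*, *CG4267* and *CG1208* also rose in gut, with gut effects of 3.04, 1.72, 2.36 and 2.38 and differences of 2.58, 2.26, 2.25 and 2.16.

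For a smaller group the positive difference came from a fall in *nub1* carcass. *Cyp12c1*, another cytochrome P450 gene, had carcass signals of 111, 106 and 105 in wt and 29.4, 17.3 and 20.9 in *nub1*. In gut it was 193, 166 and 155 in wt and 241, 177 and 265 in *nub1*, where the groups overlapped (carcass −1.87, adjusted p = 1.32e-05, gut 0.38, adjusted p = 0.0967, difference 2.25, SE 0.23, adjusted p = 1.05e-04). *ZnT35C*, which encodes a zinc transporter, was 199.5, 196 and 219.9 in wt carcasses and 37.7, 36.1 and 49.3 in *nub1* carcasses. Its gut signals, 97.2 to 130.3 in wt and 89.2 to 118 in *nub1*, overlapped, and the difference was 1.97 (SE 0.20, adjusted p = 8.62e-05).

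**Figure D3:**
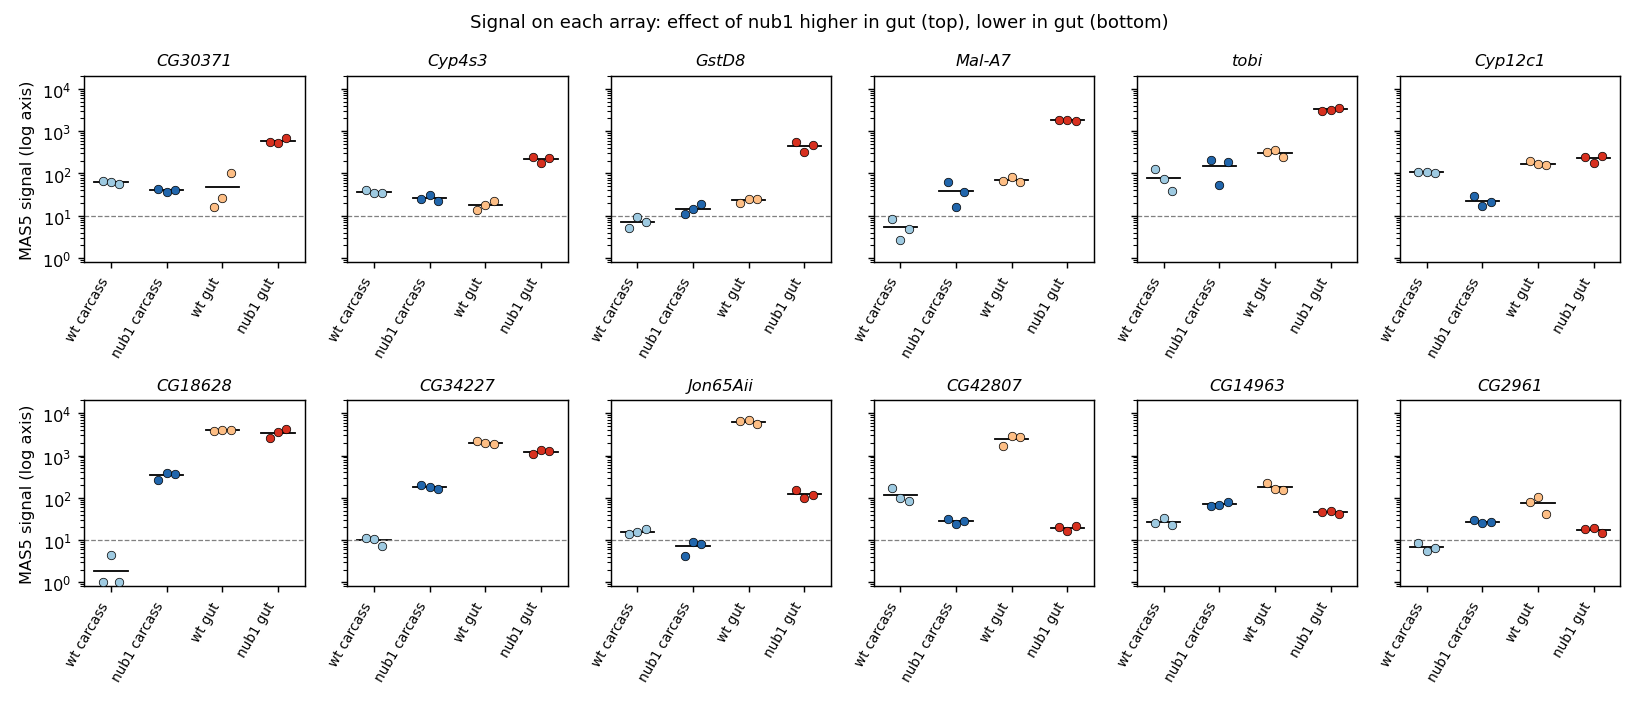
MAS5 signal on each array (log axis, 1 point per array, bars at the mean of 3 arrays, values under 1 drawn at 1) for 6 genes with a positive difference (top) and 6 with a negative one (bottom). The dashed line marks the limit of 10. *CG18628* and *CG34227* rise in *nub1* carcass, *Jon65Aii* and *CG42807* fall in *nub1* gut, and *CG14963* and *CG2961* do both.

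Among the negative differences, *Jon65Aii*, *CG42807*, *Cht9*, *CG11893* and *Obp99a* were carried by steep falls in *nub1* gut. *Jon65Aii*, a serine protease gene of the Jonah family, had signals of 6421, 7033 and 5511 in wt guts and 155, 101 and 119 in *nub1* guts. In carcass it was 13.6, 15.5 and 18.1 in wt and under 10 on all 3 *nub1* arrays, so that the fold there is only known to be at least 1.56. Its gut effect was −5.56 and its difference −4.98 (SE 0.23, adjusted p = 4.34e-07), and a carcass signal this near the limit had little room to fall.

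*CG42807* fell in both tissues, from 1648, 2834 and 2792 to 19.9, 16.4 and 22.1 in gut and from 172, 99.6 and 83.4 to 32.1, 23.7 and 27.9 in carcass. In wt flies gut was brighter than carcass on every array, and in *nub1* flies every gut array was below every carcass array (gut −6.33, carcass −1.71, difference −4.63, SE 0.35, adjusted p = 1.13e-05). *Cht9*, a chitinase gene, fell in gut from 1450, 1160 and 1263 to 23.9, 9.19 and 24.8, with a difference of −4.32 (SE 0.34, adjusted p = 1.55e-05) and a carcass level of at most 27.0. *Obp99a*, of the odorant-binding protein family, was 1413, 1196 and 1225 in wt guts and 36.5, 87.0 and 238 in *nub1* guts. Its carcass level was 944, 999 and 622 in wt and 488, 443 and 503 in *nub1*, without overlap but with a change that did not pass the test (difference −2.83, SE 0.62, adjusted p = 0.0112). That test also carries the wider spread of the *nub1* guts.

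Other negative differences came from a rise in *nub1* carcass of transcripts that were bright in gut in both genotypes. *CG18628* and *CG4210* were under 10 in wt carcass, so they were included through the same *nub1* carcass arrays that give the rise. *CG18628* was 0.451, 4.52 and 0.517 in wt carcasses and 265, 379 and 375 in *nub1* carcasses, at least 33.5-fold higher. In gut it was 3757, 4035 and 4028 in wt and 2560, 3506 and 4280 in *nub1*, with overlapping groups (difference −5.11, SE 0.28, adjusted p = 1.30e-06). *CG4210* had the same form at lower levels, with 0.756 to 3.97 in wt carcasses, 76.6 to 106 in *nub1* carcasses, 186 to 251 in wt guts and 193 to 221 in *nub1* guts (difference −3.16, SE 0.22, adjusted p = 5.02e-06).

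*Jon25Biii*, a Jonah protease gene, was 31.5, 46.9 and 52.9 in wt carcasses and 1003, 270.4 and 274 in *nub1* carcasses, against 7128 to 10126 over the 6 gut arrays, where the genotypes overlapped. Its difference was −3.03 (SE 0.57, adjusted p = 0.00482). In all, 54 called probe sets were higher in *nub1* carcass with a lower effect in gut, and 30 of them were brighter in *nub1* gut than in *nub1* carcass. The rise in mean carcass signal came to between 1.06% and 1772% of the mean *nub1* gut signal, with a median of 53.0%, and to 9.80% for *CG18628*, 13.8% for *CG34227*, 45.3% for *CG4210*, 5.27% for *Jon25Biii* and 1.09% for *thetaTry*. For 20 digestive protease genes as a whole the median was 0.904%, from −9.48% to 13.3%. The summed signal of all 30 such genes on the array was 7.92%, 11.4% and 8.47% of the wt gut mean in wt carcass replicates 1 to 3 and 9.07%, 6.11% and 10.7% of the *nub1* gut mean in *nub1* carcass replicates 1 to 3. The part of gut RNA in carcass samples in these rises was not tested. Without *nub1* carcass replicate 1, the highest array for *Jon25Biii*, 46 of the 54 were still called.

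Where a transcript was brighter in wt flies differed between the kinds of call. In wt, 2768 of the 8395 members were brighter in gut than in carcass, with a median of −0.47 for gut minus carcass on the log2 scale. Of the 50 members called higher in carcass alone, 43 were brighter in wt gut (median 2.13), and of the 112 called lower in gut alone, 90 were (median 1.01). Of the 20 called lower in carcass alone, 7 were brighter in wt gut (median −0.58). The wt arrays enter both quantities, so these values are a description.

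*CG4998* fell in gut while its carcass value was above 0. It went from 141, 176 and 103 to 5.43, 16.8 and 6.50 in gut and from 23.7, 15.9 and 23.5 to 72.4, 31.8 and 32.8 in carcass, without overlap in either tissue. The gut change passed and the carcass change did not (gut −2.95, carcass 0.78, adjusted p in carcass = 0.113, difference −3.73, SE 0.41, adjusted p = 1.84e-04). *CG17681* lay the opposite way, at 25.0, 38.9 and 29.8 in wt guts and 107, 64.1 and 101 in *nub1* guts, and at 32.9, 31.8 and 31.3 in wt carcasses and at most 14.1 in *nub1* carcasses (difference 2.21, SE 0.26, adjusted p = 2.52e-04).

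*CG14963* and *CG2961* were the 2 members called in both tissues with opposite directions, each higher in *nub1* carcass and lower in *nub1* gut. *CG14963* went from 25.0, 33.2 and 22.4 to 65.3, 69.3 and 77.5 in carcass and from 224, 165 and 151 to 46.0, 48.6 and 42.3 in gut (carcass 1.14, gut −1.75, difference −2.89, SE 0.21, adjusted p = 9.68e-06). *CG2961* was under 10 on all 3 wt carcass arrays and 29.5, 25.1 and 26.7 in *nub1* carcass, at least 2.70-fold higher, and went from 77.5, 102 and 42.5 to 18.1, 19.6 and 14.6 in gut (difference −2.69, SE 0.31, adjusted p = 2.42e-04). Neither transcript had overlapping genotypes in either tissue, which was so for 45.1% of all members in carcass and 38.4% in gut, each tissue taken alone.

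With no fold minimum, 65 members (0.774%) had an adjusted p under 0.05 in both tissues and opposite signs, against 748 (8.91%) with the same sign. The difference was called for 46 of the 65, of which 32 were lower and 14 higher in *nub1* gut. *CG34227* was 11.3, 10.7 and 7.44 in wt carcasses and 202, 178 and 162 in *nub1* carcasses. In gut it fell from 2161, 2010 and 1875 to 1098, 1315 and 1303, under the fold minimum (carcass 3.26, gut −0.70, difference −3.96, SE 0.16, adjusted p = 2.54e-07). *Prx6c*, a peroxiredoxin gene, was likewise higher in *nub1* carcass (0.99) and lower in *nub1* gut (−0.51), with a difference of −1.50.

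Several enzyme genes went the other way, higher in *nub1* gut and lower in *nub1* carcass. *Acox57D-d*, which encodes an acyl-CoA oxidase of peroxisomal fatty acid breakdown, had signals of 183, 165 and 193 in wt guts and 643, 491 and 730.4 in *nub1* guts, and of 146, 157 and 162 in wt carcasses against 106, 105 and 99.2 in *nub1* carcasses. *GstE1* was 110.1, 181 and 222 in wt guts and 363, 373 and 337 in *nub1* guts, and 579.6, 561 and 563 against 342, 351 and 399.9 in carcasses. In both cases the genotypes did not overlap in either tissue, and the differences were 2.26 and 1.70 (SE 0.18 and 0.26, adjusted p = 1.59e-05 and 0.00147). *Men*, malic enzyme, which supplies NADPH for lipid synthesis, and *FASN2*, a fatty acid synthase, had smaller changes of this kind, with gut effects of 0.31 and 0.57, carcass effects of −0.72 and −0.80 and differences of 1.04 and 1.38.

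The antimicrobial peptides held the largest share of negative calls among the immune lists. Of 21 listed peptides, 13 had a probe set of their own, and 10 of these were measured in both tissues. A called negative difference was found for 6 of the 10 and a positive one for none. Over all genes the shares were 2.66% and 1.54%. The list's median was −2.13, where the median of all members was −0.02. Under the alternatives, 4 to 7 of the list were called negative, and its median ran from −2.48 to −1.74. Within carcass, 5 were higher in *nub1* and 1 lower, and within gut 1 was higher and 2 lower. *Def*, which encodes a defensin, was 34.0, 25.2 and 42.7 in wt carcasses and 839.9, 539 and 196 in *nub1* carcasses. In gut it was 2230, 1890 and 2329 in wt and 2939, 4034 and 4278 in *nub1*, without overlap but short of the test (carcass 3.40, adjusted p = 1.08e-04, gut 0.79, adjusted p = 0.144, difference −2.62, SE 0.55, adjusted p = 0.00915). The gut test also carries the wider spread of the *nub1* carcasses.

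*Listericin*, an antibacterial protein gene, was 62.0, 55.6 and 55.4 in wt carcasses and 388, 226 and 153 in *nub1* carcasses, but 2157, 1565 and 1588 in wt guts and 912, 1206 and 908 in *nub1* guts. Its difference was −2.68 (SE 0.36, adjusted p = 7.29e-04), with a gut effect of −0.80 that stayed under the fold minimum. *AttD*, an attacin gene, was 11.6, 7.87 and 15.9 in wt carcasses and 153, 113 and 21.8 in *nub1* carcasses, with overlapping gut groups of 91.9 to 307 and 60.7 to 175. With a wt carcass array at 7.87, *AttD* was included through *nub1* alone. Its difference of −2.90 (SE 0.82, adjusted p = 0.0368) passed narrowly. It lost the call under 13 of 25 alternatives, with values between −3.62 and −2.08, among them those without *nub1* carcass replicate 1 or 2.

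*Drsl5*, a gene of the drosomycin family, differed in another way. It was 239.8, 239 and 235 in wt carcasses and 237, 169 and 188 in *nub1* carcasses, and fell in gut from 278, 224 and 281 to 18.5, 17.6 and 63.0 (gut −2.80, difference −2.54, SE 0.42, adjusted p = 0.00238). The other called members, outside the 4 named by size, were *CecB* (carcass 1.76, gut −0.45) and *Drs* (carcass 2.17, gut 0.19). *DptB* had values of 1.41 and −0.63 with a difference of −2.04 that did not pass (adjusted p = 0.158).

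**Figure D4:**
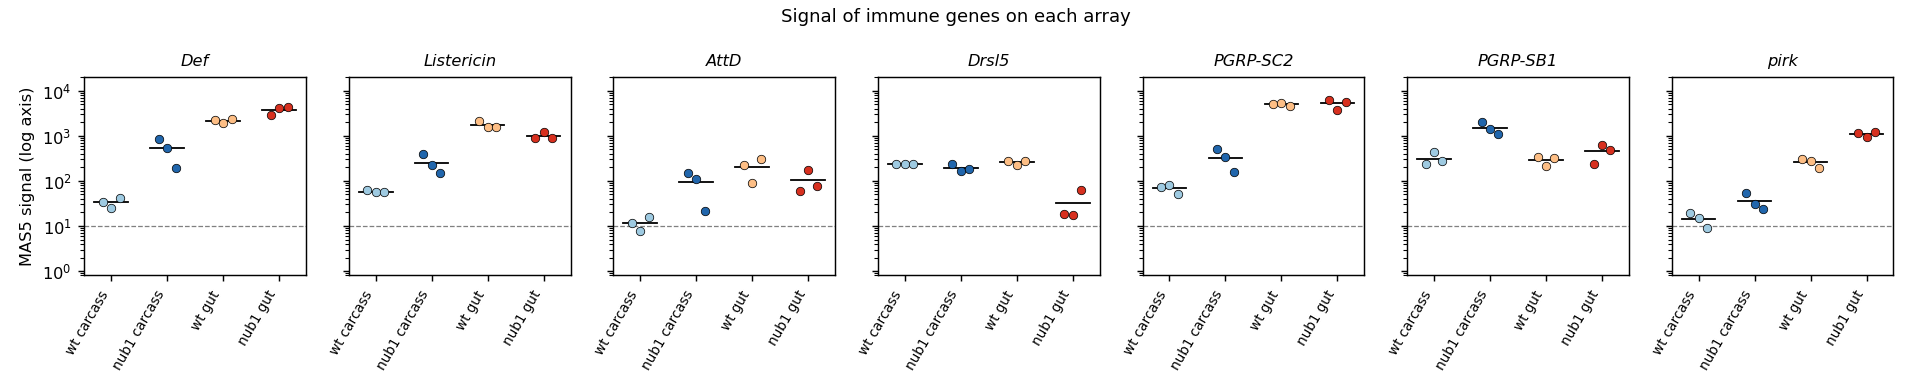
MAS5 signal on each array (log axis, 1 point per array, bars at the mean of 3 arrays, dashed line at 10) for 7 immune genes. *Def*, *Listericin*, *AttD* and both *PGRP* genes are higher in *nub1* than wt carcass, *Drsl5* is lower in *nub1* gut, and *pirk* is higher in *nub1* in both tissues. Among the *nub1* carcasses, replicate 1 is highest and replicate 3 lowest for 6 of the 7 genes.

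The other immune lists moved less. Of 6 peptidoglycan recognition protein genes, *PGRP-SC2* and *PGRP-SB1*, which encode peptidoglycan-cleaving amidases, had called negative differences. That is 33.3% of the list, where 4.20% of all genes were called in either direction. *PGRP-SC2* was 73.8, 79.5 and 51.4 in wt carcasses and 499, 334 and 157 in *nub1* carcasses, against 4583 to 5307 in wt guts and 3746 to 6311 in *nub1* guts (difference −1.96, SE 0.47, adjusted p = 0.0175). *PGRP-SB1* was 235, 432 and 274 in wt carcasses and 2012, 1452 and 1076 in *nub1* carcasses, with overlapping guts at 216 to 347 and 237 to 638 (difference −1.71, SE 0.50, adjusted p = 0.0406). Of 27 genes of Toll and IMD signalling, *pirk*, an inhibitor of IMD signalling, and *spirit*, a serine protease of the Toll cascade, were called (7.41%). Their differences were 1.18 and −1.44, and the list's median was 0.09. *pirk* rose in gut from 303, 277 and 189 to 1140, 934 and 1228 and in carcass from 19.1, 15.1 and 8.95 to 54.1, 31.5 and 23.9, the latter under the fold minimum. Among 10 bomanin and related peptide genes, only *BomS6* was called (−1.31, adjusted p = 0.0388), although 5 were lower in *nub1* gut and the list's median was −0.89.

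Genes of carbohydrate digestion and glutathione transfer leaned to positive differences. Of 10 maltase, amylase and trehalase genes, 4 had called positive differences and none a negative one (median 0.59), where 1.54% of all genes were called positive. Beside *Mal-A7* and *tobi* these were *Mal-A8*, which rose from 125, 216 and 142 to 1102, 929 and 1028 in gut (difference 1.35), and *Mal-B1*, which fell in carcass from 48.0, 44.8 and 32.3 to 13.9, 5.74 and 0.979 (difference 1.42). With a pseudocount of 1, *Mal-A8* and *Mal-B1* lost the call and the list's median was 0.14. In carcass, the dimmer genotype of both was near or under the limit. Of 26 glutathione S-transferase genes, 7 had positive and 1 a negative called difference (median 0.33). Without *nub1* gut replicates 1 and 3, 2 were positive and 1 negative (median 0.21). *GstD10* rose in gut from 142, 203 and 148 to 866, 439.9 and 735 (difference 1.57), whereas *GstO3* fell there from 1774, 1927 and 1918 to 648, 520.0 and 698 (difference −1.73) with carcasses between 177 and 235 in both genotypes. These families hold closely related gene copies, and a share of signal from a related copy was not tested.

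Cytochromes P450 were split, with 6 positive and 5 negative called differences among 56 genes (median 0.29). Over all genes, 1.54% were called positive and 2.66% negative. Beside *Cyp4s3* and *Cyp12c1*, *Cyp6a14* fell in gut from 204, 216 and 202 to 28.5, 21.0 and 39.5 (difference −2.29) and *Cyp4ad1* from 678, 695 and 616 to 179, 100.3 and 231 (difference −1.83), with overlapping carcass groups for both. Of 13 UDP-glycosyltransferase genes, *Ugt35C1* rose in both tissues, from 59.6, 62.0 and 65.7 to 1266, 1095 and 1381 in gut and from 16.5, 21.2 and 10.2 to 147, 138 and 122 in carcass, more in gut (difference 1.61). *Ugt37D1* fell in both, from 684, 724 and 671 to 88.0, 55.3 and 74.9 in gut and from 40.7, 40.4 and 26.9 to 10.4, 10.3 and 10.2 in carcass, again more in gut (difference −1.94).

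Among lipid genes, *Lsd-1* fell in both tissues and more so in gut. *Lsd-1*, which encodes the lipid droplet protein perilipin, was 369, 369 and 364 in wt carcasses and 174, 175 and 186 in *nub1* carcasses, and 831, 783 and 734 in wt guts against 87.2, 74.7 and 126 in *nub1* guts. It was brighter in gut than in carcass in wt and dimmer in *nub1* (difference −1.93, SE 0.20, adjusted p = 1.11e-04), while fat body markers as a list were lower in *nub1* than wt gut, a part in this result that was not tested. *Desat2*, a fatty acid desaturase gene of cuticular hydrocarbon synthesis, was risen in both, from 14.7, 7.27 and 9.21 to 680.2, 691 and 751 in carcass and from 30.1, 6.78 and 22.4 to 481, 252 and 329.7 in gut, more in carcass (difference −1.50). *ImpL2*, a secreted insulin-binding protein, was called in gut alone, rising there from 302, 249.8 and 299 to 666, 639.6 and 792, with carcasses at 293 to 297 in wt and 307 to 364 in *nub1* (difference 1.10).

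Genes of chitin and the peritrophic matrix, which lines the midgut, had 6 negative and no positive called differences among 16 (median −0.68). Over all genes, 2.66% were called negative. Beside *Cht9*, the chitin-binding protein genes *Gasp*, *obst-A* and *Peritrophin-A* were lower in *nub1* gut. *Gasp* fell from 344, 474 and 330.1 to 129, 56.6 and 109 and *obst-A* from 56.2, 76.9 and 54.9 to 3.74, 5.94 and 10.4, with overlapping carcass groups. *Gasp*, *obst-A* and *Peritrophin-A* are also made in trachea and cuticle. The remaining called members, outside the 4 named by size, were instead higher in *nub1* carcass. They were *Peritrophin-15a* (carcass 1.37, gut −0.15) and *Muc11A* (carcass 1.60, gut 0.58). In the digestive protease list, 4 of 20 had negative called differences (median −0.18), of which *Jon25Biii*, *Bace* and *thetaTry* were higher in *nub1* carcass and *Jon65Aii* lower in *nub1* gut, and 8 of the 20 were higher in *nub1* carcass.

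Some markers of further cell types in the gut samples were among the negative differences too. Of 7 neuron genes on the array, 1 could be measured in both tissues. *elav*, a neuronal RNA-binding protein gene, was 132, 81.5 and 87.8 in wt guts and 25.9, 16.6 and 28.6 in *nub1* guts, and 11.2 to 19.8 over the carcass arrays (difference −1.61, SE 0.28, adjusted p = 0.00312). Both collagen IV genes fell in gut, *vkg* from 168, 223 and 169 to 54.3, 90.9 and 49.1 and *Col4a1* from 172, 209.9 and 164 to 69.7, 119 and 76.7 (differences −1.32 and −1.01), though the gut effect of *Col4a1* was −0.99, just short of the fold minimum. The haemocyte list that holds them had 2 of 9 called, with 6 differences negative and 3 positive. Its gut levels were 5.93 to 6.04 in wt and 5.75 to 5.88 in *nub1*. Of 14 Malpighian tubule genes, 10 had negative and 4 positive differences. The calls were 4 negative ones (*Irk3*, *bib*, *Oatp58Dc* and *Smvt*), where 2.66% of all genes were called negative. For *Oatp58Dc* and *Smvt* the gut effects were −0.40 and −0.48 and the carcass effects 0.71 and 0.54. The summed signal of all 15 on the array was 5848 to 6302 in wt gut, 5003 to 5948 in *nub1* gut and 2402 to 2696 in carcass. The part of such organs in the gut effects was not tested.

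The large sets of housekeeping genes had no called difference, but the mitochondrial ones were shifted together. Of 69 mitochondrial ribosomal protein genes 67 had a negative difference (median −0.38, with medians of −0.29 in gut and 0.06 in carcass), and of 53 respiratory chain genes 51 did (median −0.42, with −0.27 in gut and 0.13 in carcass). None of either list was called, since all their differences were under the 2-fold minimum. Several in each list had an adjusted p under 0.05 by limma all the same. The lowest were 0.00151 for *ND-MNLL* of the respiratory chain and 0.00167 for *mRpS22* of the mitochondrial ribosome, both outside the naming rule. The cytoplasmic ribosomal proteins (35 genes, median −0.09) and the proteasome (26 genes, median −0.04) were near the median of all members. The muscle marker list moved in the same direction as the respiratory chain, with 9 of 11 differences negative (median −0.49, with −0.32 in gut and 0.13 in carcass), and its part in that shift was not tested. The mean of 12 muscle genes was 7.42 to 7.60 in wt gut, 6.80 to 7.54 in *nub1* gut and 7.85 to 8.27 over the carcass arrays. Leaving out *nub1* gut replicate 1, 2 or 3 gave medians of −0.29, −0.48 and −0.31 for mitochondrial ribosomal proteins. Without both replicates 1 and 3, which carried ejaculatory duct transcripts, the only *nub1* gut array left was the eggshell-rich replicate 2, and the medians were −0.08 for mitochondrial ribosomal proteins, −0.55 for the respiratory chain and −0.95 for muscle.

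**Figure D5:**
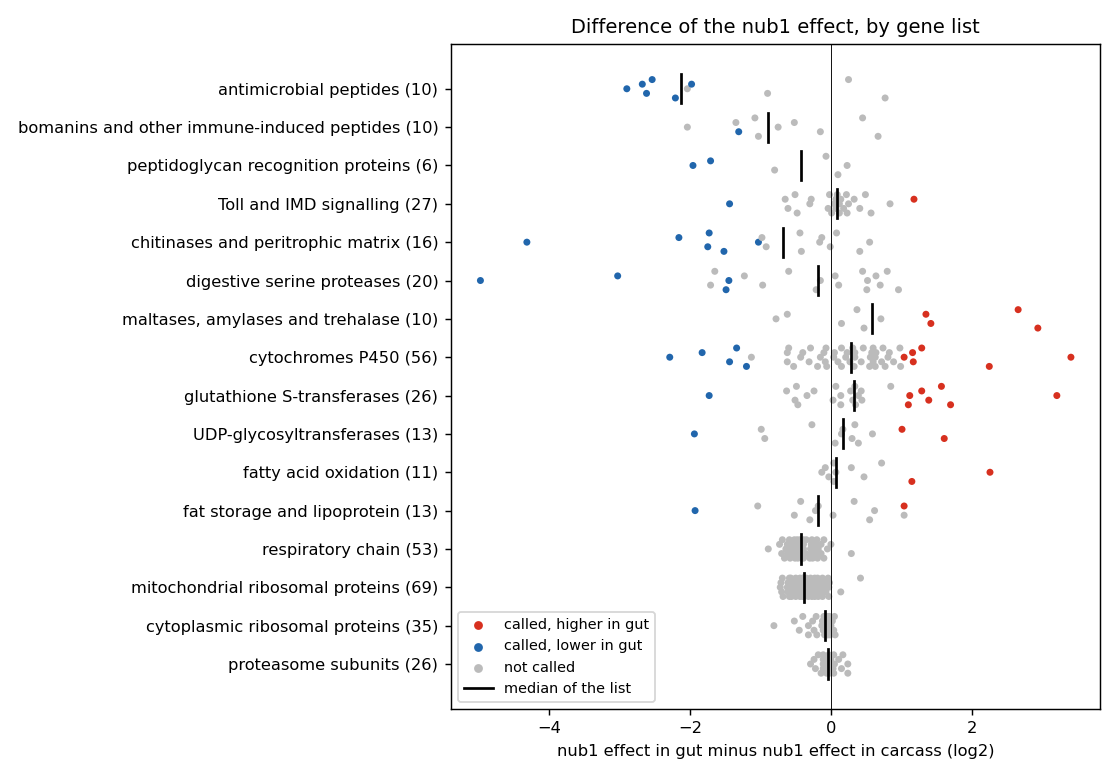
Difference of the *nub1* effect, gut minus carcass, on the log2 scale for the genes of 16 lists (1 point per gene, number of genes in brackets, black bar at the median). Red and blue points are called positive and negative differences. Antimicrobial peptides and chitin genes lie mainly left of 0, maltases and glutathione S-transferases mainly right, and both mitochondrial lists lie left of 0 as narrow groups without a call.

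The called genes were spread over the chromosome arms. On 2L, which carries *nub*, *black* and *purple*, 55 of 1267 genes were called for the difference (4.34%), on 2R 66 of 1447 (4.56%), on 3L 54 of 1358 (3.98%), on 3R 66 of 1738 (3.80%) and on X 52 of 1159 (4.49%). Genes called in the same direction in both tissues made up 2.45% on 2L, 2.70% on 2R, 1.03% on 3L, 2.24% on 3R and 1.73% on X. Arrays of 1 group agreed less in gut than in carcass. The median SD over members on the log2 scale was 0.0851 in wt carcass, 0.0937 in *nub1* carcass, 0.136 in wt gut and 0.225 in *nub1* gut. The number of arrays limits the precision. Within 1 tissue, 3 arrays against 3 cannot reach an exact permutation p of 0.05 when both directions are counted.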

How the data were processed

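The authors deposited MAS5 signal values, made in Affymetrix Expression Console, as linear intensity per probe set. Versions of these tools: not given in the sources used here. No detection call was used. The arrays hold 18952 probe sets, and 183 of them, the array controls, were dropped. Names came from the platform annotation, updated through RefSeq, with 13647 probe sets for 1 gene, 402 for several and 4720 for none. No sequence or genome coordinate was used.

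Signals were fitted as log2(signal + 10) with limma 3.58.1 in R 4.3.3, with 1 mean per group, variances moderated along an intensity trend (residual degrees of freedom 8, prior 3.66) and the contrasts carcass, gut, and gut minus carcass. The fit and the Benjamini-Hochberg adjustment covered 10199 probe sets with signal of at least 10 on all 3 arrays of any group. Called means an adjusted p under 0.05 and at least 1 on the log2 scale. Fold changes are on the log2(signal + 10) scale, which understates those of dim transcripts. Lower bounds of a fold ("at least") were computed from mean log2 signals with values under 10 set to 10. The replicates were independent pools of flies, and p-values measure the spread between pools. On simulated data of 10199 probe sets, differences of log2 2 and 1.5 were recovered for 93% and 87% of 100 probe sets each. There were 2 false calls among the unchanged probe sets. The simulated noise was independent between probe sets and of equal spread in all groups. In the data the median SD ran from 0.0851 in wt carcass to 0.225 in *nub1* gut, so these rates do not give the error on these arrays.

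Named genes were the 12 largest differences in each direction, members called in opposite directions, up to 4 genes per described list, and *nub* and *pr*, with the brightest probe set per gene. Those outside this rule are marked or were needed to name a small count. The members, lists and rules were chosen with earlier results of these data known. Alternatives changed the pseudocount (1 or 32), the filter, normalization, variance model, block, test and set of arrays. The fit without *nub1* gut replicates 1 and 3 was added after seeing the data. Tables were handled with Python 3.11.15, pandas 2.3.3 and numpy 2.4.6.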

Additional observations from a re-analysis of the deposited data

Results flagged for a closer look

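The nub1 effect in gut differed from that in carcass by limma's test of the difference itself for each of the following genes, given with the difference of log2 changes, gut minus carcass. The size of this list follows from the comparison, which was made to find such differences, and each value is taken over 6 gut and 6 carcass arrays.

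Positive differences were found for *CG30371* (4.20), *Cyp4s3* (3.41), *GstD8* (3.21), *Mal-A7* (2.94), *tobi* (2.66), *CG7381* (2.58), *Acox57D-d* (2.26), *CG4267* (2.25), *Cyp12c1* (2.25), *CG17681* (2.21), *CG1208* (2.16) and *ZnT35C* (1.97). Smaller positive ones were those of *GstE1* (1.70), *Ugt35C1* (1.61), *GstD10* (1.57), *Mal-B1* (1.42), the scavenger receptor gene *Sr-CIV* (1.39), *FASN2* (1.38), *Mal-A8* (1.35), *FASN3* (1.28), *pirk* (1.18), *Acox57D-p* (1.15), *ImpL2* (1.10), *Men* (1.04) and *Ugt36A1* (1.01).

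Negative differences were found for *CG18628* (−5.11), *Jon65Aii* (−4.98), *CG42807* (−4.63), *Cht9* (−4.32), *CG34227* (−3.96), *CG4998* (−3.73), *CG11893* (−3.41), *CG4210* (−3.16), *Jon25Biii* (−3.03), *AttD* (−2.90), *CG14963* (−2.89) and *Obp99a* (−2.83). They were followed by *CG2961* (−2.69), *Listericin* (−2.68), *Def* (−2.62), *Drsl5* (−2.54), *Cyp6a14* (−2.29), *Gasp* (−2.16), *PGRP-SC2* (−1.96), *Ugt37D1* (−1.94), *Lsd-1* (−1.93), *Cyp4ad1* (−1.83), the lipase gene *Lip4* (−1.82), *obst-A* (−1.75), *Peritrophin-A* (−1.73), *GstO3* (−1.73), *PGRP-SB1* (−1.71) and the potassium channel gene *Irk3* (−1.70). Differences between −1.61 and −1.01 were those of *elav* (−1.61), *bib* (−1.58), *Prx6c* (−1.50), *Desat2* (−1.50), *Bace* (−1.49), *thetaTry* (−1.45), *spirit* (−1.44), *vkg* (−1.32), *BomS6* (−1.31), *CRMP* (−1.14), *VhaAC45RP* (−1.13), *VhaM9.7-a* (−1.12), *Oatp58Dc* (−1.11), the gluconeogenesis gene *Pepck2* (−1.07), *Smvt* (−1.01) and *Col4a1* (−1.01).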

How the results depend on the processing

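The 354 called differences (127 higher and 227 lower in gut) became 225 with a pseudocount of 32 (130 lower in gut, 211 shared with the 354), 615 with no filter on low signals (440 lower) and 1038 with no fold minimum (462 higher, 576 lower). Without *nub1* gut replicates 1 and 3, the arrays with ejaculatory duct transcripts, which leaves 1 *nub1* gut array assumed to vary like the others, 657 were called (313 higher, 344 lower), 266 of them among the 354. Leaving out 1 array at a time gave 314 to 445 called (109 to 163 higher, 185 to 282 lower), 373 to 403 in carcass, 529 to 609 in gut and 2 to 4 in opposite directions. Calls within carcass (386) and gut (551) became 222 and 351 with a pseudocount of 32 and 1258 and 2741 with no fold minimum. Carcass calls were 253 among members at 10 or above on all 12 arrays. Gut calls were 913 with no filter and 363 by the methods' t-test with Benjamini-Hochberg adjustment and the 2-fold minimum, where 332 were called in carcass. The 2 members in opposite directions became 0 with a pseudocount of 32, 1 with quantile normalization between all arrays or with all 12 arrays at 10 or above, 4 with array weights or without *nub1* gut replicate 2, 5 without the gut arrays richest in eggshell transcripts (wt gut replicate 3 and *nub1* gut replicate 2) and 65 with no fold minimum. The causes were not tested, other than that fewer or more probe sets enter by construction when the filter or the minimum changes. The correlation of the effects was 0.55 by Pearson and 0.38 by Spearman.

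For gut and carcass arrays of the same genotype and number, 2 of 6 correlations of deviations from the group means were over 0.1. Over all pairs of groups, 5 of 18 were so for the same number and 13 of 36 for different numbers. With so few arrays this cannot settle whether the replicate numbers pair gut and carcass. With replicate number as a block 349 differences were called, and with the pool as a block 344.

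Of 69 named genes with a called difference, 41 were called under all 25 alternatives and none changed sign. The calls of *VhaM9.7-a*, *Ugt36A1*, *BomS6*, *AttD*, *PGRP-SB1*, *pirk*, *Desat2* and *Col4a1* were lost under 20, 15, 14, 13, 13, 13, 13 and 11 of the 25. Signals near 10 limit the values of 10 of the 69, for which a group was under 10 on all 3 arrays.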
